A study of Mus musculus with 4 samples.

Results

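The 7 transcription factor genes of the cerebellar granule neuron lineage described here are Atoh1, Barhl1, Meis1, Pax6, Neurod1, Nhlh1 and Neurod2. They were chosen by name, and all 7 were found among the 27998 genes of the deposited tables. The tables come from single-cell RNA sequencing of Sonic hedgehog (SHH) medulloblastomas from the cerebellum of 4 littermate mice, 1 library per mouse, each mouse an Atoh1-cre:SmoM2 animal at postnatal day 20. In this strain Cre is driven by regulatory sequence of Atoh1 and switches on SmoM2, a constitutively active form of the hedgehog receptor component Smoothened, in granule neuron precursors. Every animal carries both alleles, there is no untreated or normal cerebellum among the samples, and all comparisons are therefore between classes of cells within the same 4 tumours. Whether the Cre transgene adds molecules to the Atoh1 row was not tested.

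Granule neurons arise from precursors in the external granule layer, which divide under SHH and then leave the cycle, extend axons and migrate inward. Atoh1 is the basic helix-loop-helix (bHLH) factor that specifies these precursors and keeps them dividing. Barhl1 is a homeobox factor known as a target of Atoh1 that acts in granule cell migration and survival, Meis1 is a TALE-class homeobox factor of granule precursors, and Pax6 is a paired-box factor present in precursors and in postmitotic granule cells. Neurod1 and Neurod2 are bHLH factors of differentiating and surviving granule neurons, and Nhlh1 is a bHLH factor of newly postmitotic neurons. The bHLH factors bind E-boxes, short sites of the form CANNTG, as dimers with partners such as Tcf4, and Id proteins hold those partners away from DNA.

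In the gencode vM21 annotation of mm10, Atoh1 is a protein-coding gene of 1 exon at chr6:64729125-64731245 on the plus strand. Neurod1 (chr2:79452521-79456751), Nhlh1 (chr1:172052292-172057573) and Neurod2 (chr11:98325415-98329648) each have 2 exons and lie on the minus strand. Barhl1 (chr2:28907679-28916668, minus strand) has coding transcripts of 3 to 5 exons, Pax6 (chr2:105668900-105697364, plus strand) of 8 to 14 exons and Meis1 (chr11:18879817-19018985, minus strand) of 10 to 13 exons. Neurod1 lies inside the annotated span of Cerkl on the same strand and shares 201 of its 2729 exon bases with it. Cerkl had 12 UMIs (unique molecular identifiers, each marking 1 captured RNA molecule) in the cells analysed, against 1598 for Neurod1. The antisense genes with UMIs over Pax6 (Pax6os1, 27 UMIs) and Meis1 (Gm16140, 36 UMIs, and Gm16141, 125 UMIs) were small beside the 2312 UMIs of Pax6 and 1631 of Meis1.

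The promoter windows of the 4 bHLH members are shown because Neurod1, Neurod2 and Nhlh1 rose in the differentiating class while Atoh1 did not. They are the RefSeq windows of 300 bases around the start site, build GRCm38.p6, 5′ to 3′ along the gene's own strand, with every CANNTG in capitals.
Neurod1, chr2:79456587-79456886, minus strand: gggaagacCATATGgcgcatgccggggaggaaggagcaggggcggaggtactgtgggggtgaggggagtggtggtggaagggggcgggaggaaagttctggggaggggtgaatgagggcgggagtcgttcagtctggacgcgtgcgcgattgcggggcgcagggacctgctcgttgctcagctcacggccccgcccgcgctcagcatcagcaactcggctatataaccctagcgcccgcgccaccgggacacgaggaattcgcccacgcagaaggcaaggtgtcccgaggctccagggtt
Neurod2, chr11:98329596-98329895, minus strand: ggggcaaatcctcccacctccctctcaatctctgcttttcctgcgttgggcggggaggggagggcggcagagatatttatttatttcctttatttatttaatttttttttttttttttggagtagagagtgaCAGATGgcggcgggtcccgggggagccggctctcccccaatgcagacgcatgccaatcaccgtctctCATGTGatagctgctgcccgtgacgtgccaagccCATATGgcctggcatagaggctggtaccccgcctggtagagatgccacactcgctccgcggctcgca
Nhlh1, chr1:172057547-172057846, minus strand: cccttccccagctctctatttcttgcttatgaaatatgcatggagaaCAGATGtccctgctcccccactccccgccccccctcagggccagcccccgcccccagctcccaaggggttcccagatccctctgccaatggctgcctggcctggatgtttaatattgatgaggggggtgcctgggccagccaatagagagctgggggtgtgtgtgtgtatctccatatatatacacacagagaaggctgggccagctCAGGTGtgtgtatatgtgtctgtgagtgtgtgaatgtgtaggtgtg
Atoh1, chr6:64728875-64729174, plus strand: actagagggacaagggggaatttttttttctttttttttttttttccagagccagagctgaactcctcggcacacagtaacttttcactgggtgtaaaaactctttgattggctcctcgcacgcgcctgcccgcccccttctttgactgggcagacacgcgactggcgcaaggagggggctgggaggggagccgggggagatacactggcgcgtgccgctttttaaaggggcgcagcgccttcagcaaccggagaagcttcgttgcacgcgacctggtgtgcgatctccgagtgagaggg
The form CANNTG reads the same on both strands and was found 3 times in the Neurod2 window, 2 times in the Nhlh1 window, 1 time in the Neurod1 window and 0 times in the Atoh1 window. At least 1 CANNTG is held by 72.3% of all 32851 RefSeq promoter windows of this length, at least 2 by 39.6% and at least 3 by 17.6%. The more specific CAGATG, searched on both strands and itself one of the CANNTG forms, occurred 1 time each in the Neurod2 and Nhlh1 windows, in neither of the other two, and in 17.2% of all windows. CAGCTG, another CANNTG form, was in none of the 4 windows and in 16.3% of all windows. The other 3 members held CANNTG 1 time (Meis1), 1 and 2 times at 2 start sites (Barhl1), and 0 and 1 time at 2 start sites (Pax6).

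After filtering, 4101 cells were analysed, with 680 to 1363 cells per mouse and median depths of 1699 to 2564 UMIs per cell. A marker counted as raised in a cluster at 1 log2 unit or more above the other clusters and in at least 10% of its cells. Clusters with fewer than 3 raised markers of any one other cell type or stage were taken as granule-lineage-like (3739 cells). These were split by 12 neuronal differentiation markers and 8 hedgehog-pathway and precursor markers into 767 differentiating cells and 2972 progenitor-like cells. Clusters were differentiating where the median log2 ratio of the differentiation markers was at least 0.5 and above that of the precursor markers, and progenitor-like otherwise. One progenitor-like cluster of 738 cells was itself low in the markers that name the class, with a median log2 ratio to all granule-lineage-like cells of -0.69 for the precursor markers and -0.40 for the differentiation markers. The differentiating class held 172, 220, 50 and 325 cells in mice 1 to 4, so the values of mouse 3 in it rest on few cells. The 7 factors and the other factor lists below were kept out of the clustering. They were also kept out of the naming, except Olig1 and Olig2, among the oligodendrocyte precursor markers, and Eomes and Lmx1a, among the unipolar brush cell markers. The progenitor-like cells of each mouse were further cut into 3 equal groups by the UMIs of 94 S and G2/M phase genes per 10000, giving cycle-high, cycle-middle and cycle-low cells. These groups are ranges of a score and not cell types, and 567 cells (19.1%) lay within 10% of an edge. Median depth was 2577 UMIs in differentiating cells against 2009.5 in all progenitor-like cells, and 1909 in cycle-low against 2519 in cycle-high cells. Of the granule-lineage-like cells, 808 (21.6%) had under 30 UMIs per 10000 of Malat1, an RNA that stays in the nucleus. The files of different mice share 20 barcodes, 9 of them after filtering. A further 39 myeloid-like, 164 astroglia-like and 132 oligodendrocyte-lineage-like cells were named. A cluster of 17 cells was left unnamed because its leading genes went against the name given by its raised markers.

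The 7 factors followed 3 patterns over the cell cycle groups and the differentiating class. Neurod1, Nhlh1 and Neurod2 were highest in the differentiating class. Pax6 was lowest in cycle-low cells and higher in cycle-high and in differentiating cells. Atoh1, Barhl1 and Meis1 rose from cycle-high to cycle-low cells and were near the cycle-low level in differentiating cells. The means of Pax6 and Barhl1 were also highest in the differentiating class. Differentiating cells held more cell cycle transcripts than cycle-low cells. The step between these groups is therefore not a further fall in cell cycle transcripts. With these classes no factor passed the test as lower in differentiating cells. Atoh1 was lower than in cycle-low cells under 1 alternative given below. Levels are CPM, counts per 1000000 UMIs summed over the cells of a mouse and class, as mean ± SD over 4 mice. Changes are log2 fold changes with a standard error (SE), tested with edgeR's quasi-likelihood test with the mouse as a block and Benjamini-Hochberg adjustment over all genes, with 0.05 as the threshold. Fewer RNA molecules per cell and a smaller share of cells with the RNA cannot be told apart in such sums.

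**Figure D1:**
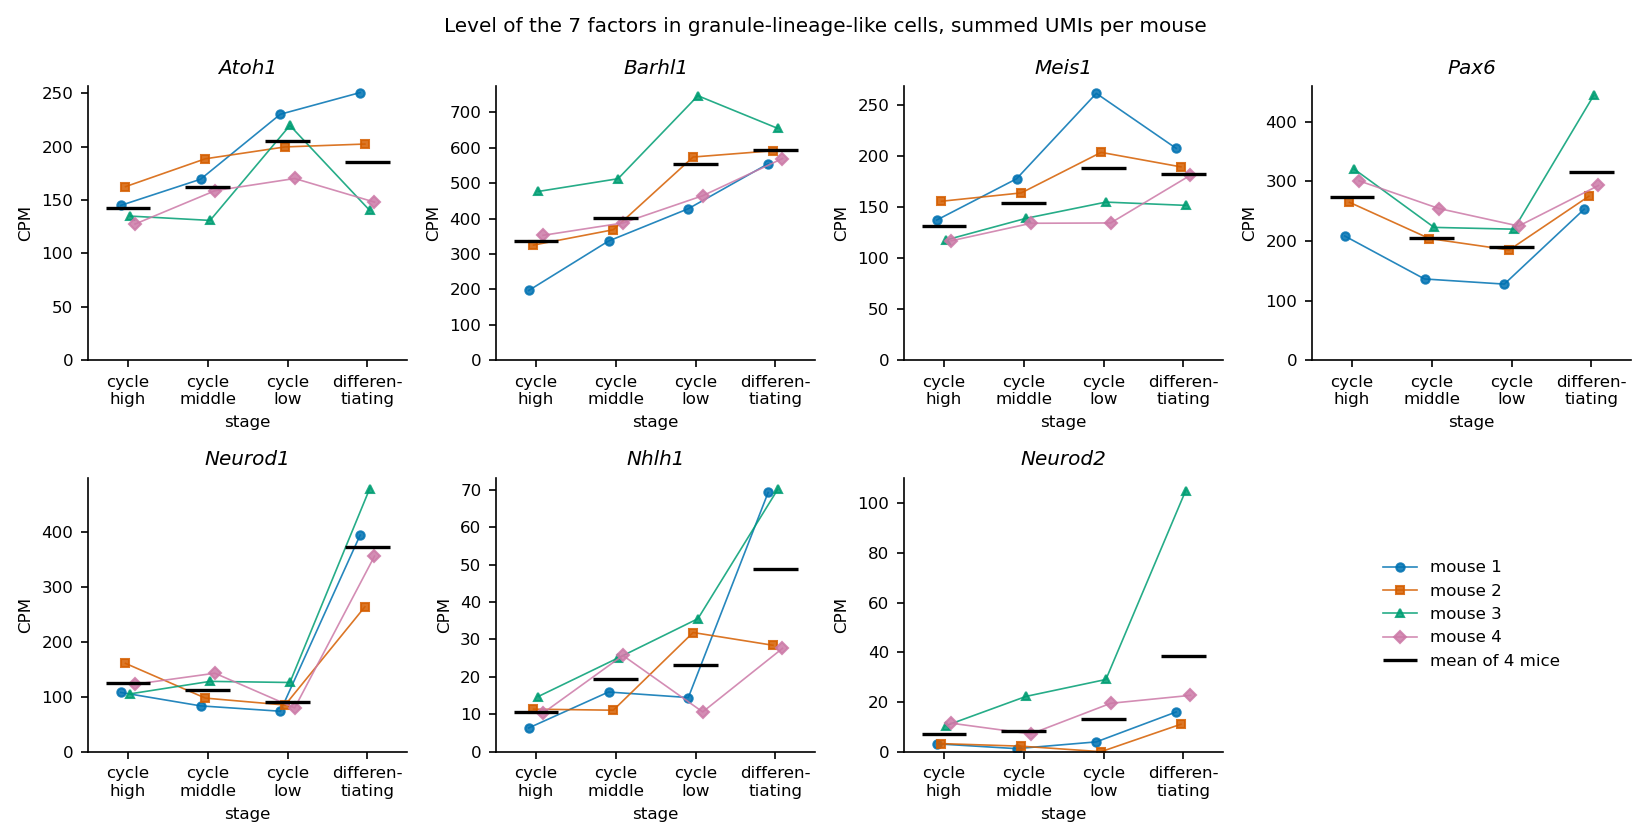
CPM (linear axis from 0, a scale of its own for each gene) of each factor in cycle-high, cycle-middle and cycle-low progenitor-like cells and in differentiating cells, with 1 point per mouse joined by a line and a black bar for the mean of 4 mice. Neurod1 lies between 264.0 and 479 CPM in differentiating cells, above every value of the 3 progenitor-like groups.

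Neurod1, which drives granule neuron differentiation, had 395, 264.0, 479 and 356 CPM in the differentiating cells of mice 1 to 4, against 89.7, 119, 118 and 118 CPM in their progenitor-like cells. Every differentiating value was above every progenitor-like value, and the ratio within a mouse ran from 2.22 in mouse 2 to 4.40 in mouse 1. The change was 1.62 log2 units (SE 0.11, adjusted p = 2.5e-17). Within the progenitor-like cells Neurod1 had 124 ± 25.6 CPM in cycle-high, 113 ± 27.3 in cycle-middle and 91.1 ± 23.7 in cycle-low cells. The progenitor-like cells as a whole had less Neurod1 in every mouse than the astroglia-like cells described below. The part of free RNA in these levels was not tested. Set against cycle-low cells alone, differentiating cells were 2.01 log2 units higher (SE 0.12, adjusted p = 1.5e-19), with no overlap between the groups.

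Neurod1 was lower in cycle-low than in cycle-high cells, by -0.49 log2 units (SE 0.15, adjusted p = 0.0084). The cycle-low values were 73.7, 85.0, 126 and 79.7 CPM, against 108, 161, 105 and 123 CPM in cycle-high cells, so mouse 3 went the other way and the groups overlapped. This call was lost in 8 of 15 alternatives, among them DESeq2 (adjusted p = 0.32), leaving out mouse 1 (0.070) or mouse 2 (0.16), a cut into 2 groups in place of 3 (0.15), and clustering with the cell cycle regressed out (log2 fold change near 0, adjusted p = 0.99).

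Nhlh1, a bHLH factor of early postmitotic neurons, was sparse, with 204 UMIs in all cells. It had 69.3, 28.5, 70.1 and 27.6 CPM in differentiating cells, against 11.9, 17.6, 23.6 and 15.5 CPM in progenitor-like cells. The groups did not overlap, and mice 1 and 3 were the high ones among differentiating cells. The change was 1.34 log2 units (SE 0.26, adjusted p = 1.25e-04). Along the cell cycle groups its mean was 10.7 ± 3.46 CPM in cycle-high, 19.5 ± 7.14 in cycle-middle and 23.1 ± 12.4 in cycle-low cells, and it passed the filter on low counts for the first of these steps only in alternatives. Differentiating cells exceeded cycle-low cells by 1.08 log2 units (SE 0.31, adjusted p = 0.014), in 3 of 4 mice. That call was lost in 5 of 14 alternatives: without mouse 1 (0.53 log2 units, adjusted p = 0.51), without mouse 4 (0.11), with DESeq2 (0.40), with no mouse block (0.37) and with 2 cell cycle groups in place of 3 (0.053).

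Neurod2, a relative of Neurod1 found in more mature granule neurons, was the sparsest member with 114 UMIs. In differentiating cells it had 15.99, 11.1, 105 and 22.7 CPM, from 6, 7, 9 and 23 UMIs, against 2.78, 1.95, 19.2 and 12.2 CPM in progenitor-like cells. It was higher in differentiating cells in every mouse although the groups overlapped, and mouse 3 stood far above the others on 9 UMIs. The change was 1.63 log2 units (SE 0.35, adjusted p = 5.5e-04) and 1.36 (adjusted p = 0.021) without mouse 3. Against cycle-low cells alone it was 1.20 log2 units (SE 0.43, adjusted p = 0.068), which did not pass.

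Pax6, which acts in precursors and in young granule cells, took a course of its own. It averaged 274 ± 49.2 CPM in cycle-high, 204 ± 49.95 in cycle-middle, 189 ± 44.8 in cycle-low and 316 ± 86.7 in differentiating cells. Cycle-low cells had 128, 185, 220 and 225 CPM, against 208, 265, 320 and 301 CPM in cycle-high cells of the same mice. Pax6 thus fell by 0.52 log2 units (SE 0.10, adjusted p = 3.1e-05), lower in 4 of 4 mice although the groups overlapped. Differentiating cells had 253, 275, 444 and 293 CPM, all above every cycle-low value, a rise of 0.58 log2 units (SE 0.11, adjusted p = 7.8e-05). Against all progenitor-like cells the rise was 0.32 log2 units (SE 0.09, adjusted p = 0.012), and it was lost without mouse 1 (0.21, adjusted p = 0.16), without mouse 3 (0.27, adjusted p = 0.076) and with DESeq2 (0.34, adjusted p = 0.13).

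Atoh1, the factor that maintains the precursor state, was at a similar level in both classes, within the spread of the mice. It had 251, 202, 140.3 and 148 CPM in differentiating cells, against 179, 182, 157 and 149 CPM in progenitor-like cells. The groups overlapped, 2 mice were higher and 2 lower, and the change of 0.13 log2 units (SE 0.10, adjusted p = 0.47) did not pass. Within progenitor-like cells Atoh1 was higher in the cells with the fewest cell cycle transcripts. Cycle-low cells had 230.3, 199.7, 219.8 and 170.1 CPM, against 145, 162, 135 and 127 CPM in cycle-high cells, with no overlap, a rise of 0.54 log2 units (SE 0.11, adjusted p = 9.8e-05). That call was lost with DESeq2 (0.51, adjusted p = 0.064).

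The step from cycle-low to differentiating cells depended on how the differentiating class was drawn. With the main classes Atoh1 was -0.14 log2 units (SE 0.12, adjusted p = 0.55). With a finer clustering (Leiden resolution 2), which kept 495 differentiating cells, it was lower by -0.58 log2 units (adjusted p = 0.0025). With the cell cycle regressed out (317 differentiating cells) it was -0.38 (adjusted p = 0.068). Over all 15 alternatives the range was -0.58 to -0.07, so no alternative gave a rise at this step.

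Barhl1, the homeobox factor downstream of Atoh1, rose along the cell cycle groups. It averaged 338 ± 115 CPM in cycle-high, 401 ± 77.1 in cycle-middle, 553 ± 143 in cycle-low and 592 ± 44.1 in differentiating cells. Cycle-low cells had 428, 574, 747 and 464 CPM, against 197, 325, 476 and 353 CPM in cycle-high cells, a rise of 0.75 log2 units (SE 0.09, adjusted p = 1.2e-10). Mouse 3 was the highest and mouse 1 the lowest in each of the 3 groups, and the rise held in 4 of 4 mice and in 15 of 15 alternatives. Differentiating cells had 554, 591, 655 and 569 CPM, against 312, 414, 561 and 394 CPM in all progenitor-like cells (0.52 log2 units, SE 0.08, adjusted p = 4.9e-07). Between differentiating and cycle-low cells the difference was 0.11 log2 units (SE 0.08, adjusted p = 0.52).

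Meis1 moved like Atoh1 in the first step. Cycle-low cells had 262, 204, 155 and 135 CPM, against 138, 156, 118 and 117 CPM in cycle-high cells, a rise of 0.56 log2 units (SE 0.12, adjusted p = 1.7e-04). Mouse 1 had the largest difference, and the call was lost in 3 of 15 alternatives: without that mouse (0.34 log2 units, adjusted p = 0.095), with DESeq2 (0.14) and with no mouse block (0.071). In differentiating cells Meis1 averaged 183 ± 23.3 CPM, against 156 ± 29.4 CPM in progenitor-like cells (0.24 log2 units, SE 0.10, adjusted p = 0.11), and neither this nor the step from cycle-low cells (-0.08, SE 0.12, adjusted p = 0.80) passed.

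**Figure D2:**
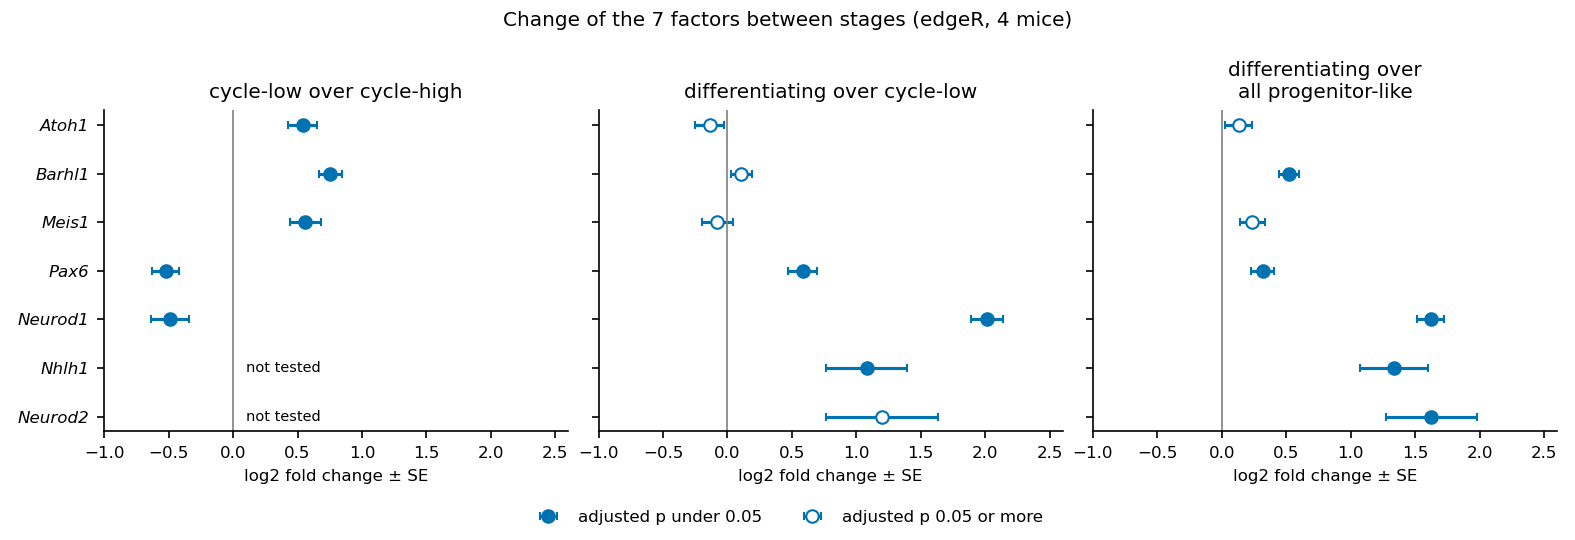
Log2 fold change (x axis) of each factor between stages with its SE as a bar, for cycle-low over cycle-high, differentiating over cycle-low and differentiating over all progenitor-like cells; filled points passed an adjusted p of 0.05, open points did not, and 2 factors were too sparse to be tested in the first panel. In the first panel every tested factor passed, Atoh1, Barhl1 and Meis1 to the right and Pax6 and Neurod1 to the left. In the second Neurod1, Pax6 and Nhlh1 passed, all to the right.

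Counted over the members, 5 of 7 passed and were higher in differentiating than in progenitor-like cells, and 0 were lower. The background is 13% of the 7442 held-out genes tested, that is genes not used for clustering, naming or ordering (439 higher and 526 lower). The median log2 fold change of the 7 was 0.52, beside 0.00 over all genes tested. Between cycle-low and cycle-high cells 3 of the 5 tested members were higher and 2 lower, where 23% of 5912 held-out genes passed. Between differentiating and cycle-low cells 3 of 7 were higher and 0 lower, where 7.97% of 5647 passed. Of these stage comparisons, Nhlh1 and Neurod2 passed the filter on low counts only in those with the differentiating class, where they were higher. The 5 include both and the 3 include Nhlh1. Their direction in these counts is therefore not independent of the filter. Classes and tests use the same cells, so a call describes how the classes differ. The comparisons share groups of cells, and depth, cell cycle transcripts and Malat1 moved with them. Cell cycle transcripts stood at 83.7 per 10000 in differentiating and 166 in progenitor-like cells, and Malat1 at 155 and 132 per 10000. Cycle-low cells, which were picked for few cell cycle transcripts, had 54.9 per 10000, below the differentiating cells. Markers of other cell types and stages were low in both classes but not equal. The 15 astroglia markers, all with UMIs in both classes, summed to 12.53 to 13.6 UMIs per 10000 over the mice in differentiating cells, against 9.74 to 12.47 in progenitor-like cells, and to 11.3 to 14.1 in cycle-low against 8.39 to 11.4 in cycle-high cells. The 12 oligodendrocyte precursor markers summed to 3.11 to 3.97 in differentiating cells, against 2.62 to 2.89 in progenitor-like cells. The 10 markers of Purkinje cells and interneurons, 7 of them with UMIs, summed to 2.28 to 3.86 against 0.980 to 2.37, and the 10 mature granule markers to 1.54 to 2.22 against 1.20 to 1.57. The part of depth, of the cell cycle and of these markers in the members' differences was not tested beyond the alternatives in the closing section.

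A second order used no clusters to rank the granule-lineage-like cells, which were themselves picked by cluster. All granule-lineage-like cells of a mouse were ranked by the UMIs of 30 neuronal genes per 10000 and cut into 5 equal bins, bin 1 with the fewest and bin 5 with the most. None of the 7 factors is among the 30 genes, but all 12 differentiation markers that named the differentiating class are. The second order is therefore not independent of the classes. Median depth was 2084 UMIs in bin 1, 2378 in bin 2 and 1701.5 in bin 5. Neurod1 averaged 72.7 ± 25.1, 90.6 ± 17.8, 114 ± 21.6, 141 ± 56.5 and 431 ± 99.5 CPM in bins 1 to 5. It was highest in bin 5 in 4 of 4 mice, 3.16 to 10.8 times bin 1, and 80.9% of the gain between the means of the first and the last bin fell in the last step. Its slope was 0.72 log2 units per bin (SE 0.05, adjusted p = 9.6e-23).

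Nhlh1 followed with 10.9 ± 8.01, 15.8 ± 3.47, 16.4 ± 8.11, 22.0 ± 14.0 and 48.7 ± 9.40 CPM, a slope of 0.55 (SE 0.09, adjusted p = 4.7e-07) and 70.7% of the gain in the last step. Neurod2 was almost absent from bin 1, with 2 UMIs, both in mouse 4, and reached 10.4, 23.8, 86.1 and 36.6 CPM in bin 5 of mice 1 to 4. Its slope was 0.97 (SE 0.13, adjusted p = 2.3e-09) with 68.4% of the gain in the last step, and was 0.91 without mouse 3. Without mouse 4 too few counts were left for a test. These 3 factors had their highest mean in the last group of both orders, and so did Pax6 and Barhl1. The orders share the differentiation markers.

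Pax6 and Barhl1 rose with smaller slopes. Pax6 averaged 195 ± 31.4, 185 ± 40.5, 243 ± 96.3, 247 ± 41.4 and 357 ± 52.2 CPM (slope 0.22, SE 0.03, adjusted p = 5.4e-10), with 67.9% of the gain in the last step. Barhl1 averaged 374 ± 102, 371 ± 94.8, 484 ± 98.6, 492 ± 94.2 and 591 ± 86.2 CPM (slope 0.18, SE 0.02, adjusted p = 5.4e-11), with 45.7% of it there. Barhl1 was highest in bin 5 in 4 of 4 mice and Pax6 in 3 of 4.

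Atoh1 and Meis1 had no slope that passed. Atoh1 averaged 169.7, 151, 170.2, 176 and 187 CPM (slope 0.05, SE 0.03, adjusted p = 0.20), and bin 5 ranged from 138 CPM in mouse 4 to 254 in mouse 1. Meis1 averaged 160, 156, 151, 175 and 175 CPM (slope 0.04, SE 0.03, adjusted p = 0.34). Of the 7 factors 5 passed, all with a positive slope, where 21.8% of 6307 held-out genes passed in either direction. Neurod2, almost absent from bin 1, passed the filter on low counts through later bins. Its direction in this count is therefore not independent of the filter. A cut into 10 bins, chosen after seeing the data, resolves the last step further. In bin 10 of 10 Atoh1 had 229, 139, 144 and 108 CPM, against 282, 259, 161 and 165 CPM in bin 9, lower in 4 of 4 mice, while Neurod1 had 587, 596, 392 and 868 CPM against 199, 292, 268 and 295 CPM. Bin 10 held 118 Atoh1 UMIs and bin 9 held 172, and this pair was not tested because it was picked by its values.

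**Figure D3:**
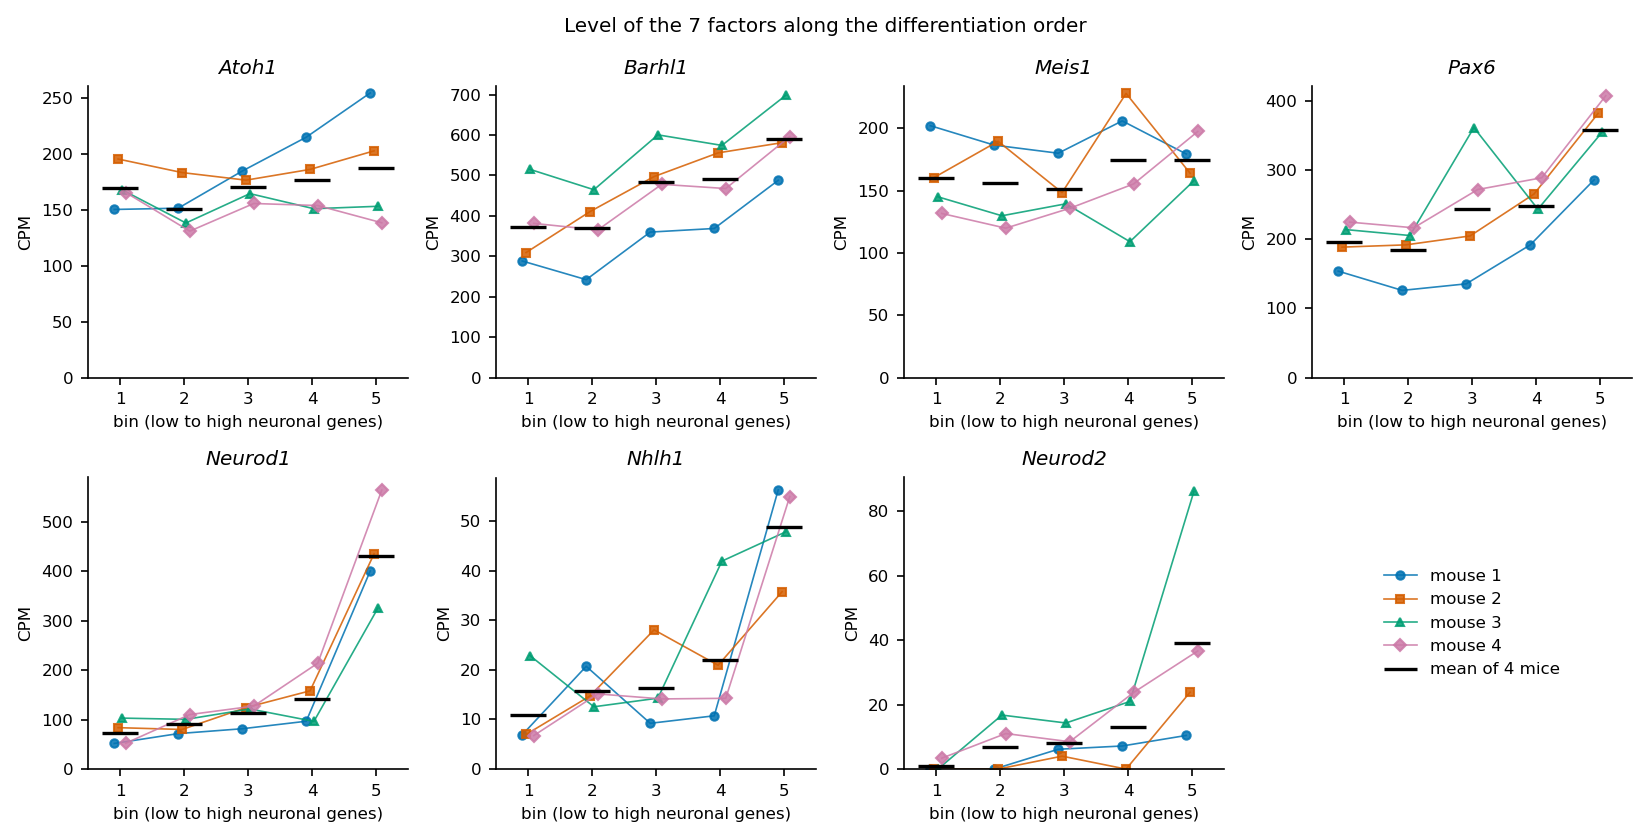
CPM (linear axis from 0, a scale of its own for each gene) of each factor in the 5 bins of granule-lineage-like cells ordered by neuronal genes, 1 point per mouse and a black bar for the mean of 4 mice. The Neurod1 panel climbs to 325 to 564 CPM in bin 5, and the Meis1 panel stays between 109 and 228 CPM.

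Among the partners of bHLH and TALE factors, 11 of 15 listed genes were tested between differentiating and progenitor-like cells, 1 rose and 2 fell (median log2 fold change 0.09, beside 0.00 over all genes). The background for this and the 2 lists that follow is the 13% of held-out genes that passed in either direction. Tcf4, an E protein that pairs with proneural bHLH factors, rose by 0.41 log2 units (SE 0.06, adjusted p = 8.5e-07). Id1, an inhibitor that binds E proteins, fell by 1.31 log2 units (SE 0.24, adjusted p = 5.3e-05). Both moved the same way in 4 of 4 mice.

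Of 18 other neural bHLH factors 7 were tested, 3 rose and 2 fell (median 0.49). Nhlh2, the closest relative of Nhlh1, rose by 1.08 log2 units (SE 0.11, adjusted p = 4.7e-11), and Hey1, a Notch effector, by 0.86 (SE 0.09, adjusted p = 9.9e-11). Hes1, the Notch and hedgehog responsive repressor of neuronal bHLH genes, fell by 1.56 log2 units (SE 0.28, adjusted p = 3.5e-05). Olig1, which was also one of the oligodendrocyte precursor markers, fell by 1.07 (SE 0.21, adjusted p = 1.24e-04).

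Of 39 other transcription factors of the granule lineage 28 were tested, 12 rose and 2 fell (median 0.32). Myt1, a zinc finger factor of neuronal differentiation, rose by 1.99 log2 units (SE 0.36, adjusted p = 2.7e-05), the homeobox factor Uncx by 1.06 (SE 0.16, adjusted p = 8.8e-07) and the chromatin organiser Satb1 by 0.77 (SE 0.18, adjusted p = 0.0014). Etv1, an ETS factor, fell by 0.91 (SE 0.29, adjusted p = 0.026).

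For each factor the genes with the most similar course were taken over the 16 sums of 4 stages and 4 mice, as Pearson's r of log2(CPM + 1) centred on the mouse, among 3185 genes. The sums share animals and libraries, so r is a description. Neurod1 was closest to Tubb2b (r = 0.978), Tuba1a (0.968) and Podxl2 (0.960), the first pair encoding tubulins of young neurons. Pax6 was closest to Cyth2 (0.951), Ddah2 (0.939) and Sox11 (0.898), and Sox11 averaged 615, 465, 428 and 834 CPM along the 4 stages. Atoh1 was closest to Btg2 (0.868), an antiproliferative gene that averaged 49.9, 75.5, 156 and 94.9 CPM along the stages, to Mrpl22 (0.849) and to Id2 (0.832). Barhl1 was closest to Abhd14a (0.931), the thyroid hormone receptor gene Thra (0.928) and Mpv17l2 (0.925), and Meis1 to Npc2 (0.888), Abhd14a (0.885) and the glutamate transporter gene Slc1a2 (0.864). Nhlh1 was closest to Mapk8ip1 (0.921), Tprn (0.902) and Ptprs (0.891), and Neurod2 to Klc1 (0.906), Rbfox2 (0.904) and Mtss1 (0.900). With 204 and 114 UMIs in all cells, Nhlh1 and Neurod2 have few molecules per sum, so their r values are uncertain.

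To compare the share of cells in which a factor was seen, each cell was thinned to 1500 UMIs and 179 differentiating and 1010 progenitor-like cells with fewer were left out. Neurod1 was then detected in 33.8% ± 5.62 of differentiating cells, against 14.7% ± 0.88 of progenitor-like cells (SD, 4 mice), a difference of 19.1 points that was higher in 4 of 4 mice. Atoh1 was detected in 24.0% ± 6.91 against 23.0% ± 1.97, Barhl1 in 54.9% ± 3.63 against 45.0% ± 7.00, Meis1 in 23.4% ± 4.10 against 20.9% ± 5.52, and Pax6 in 32.8% ± 4.17 against 25.7% ± 4.38. Nhlh1 was detected in 6.16% ± 2.13 against 2.78% ± 1.33 and Neurod2 in 2.87% ± 1.17 against 1.19% ± 1.07. Meis1, Pax6, Neurod1 and Neurod2 were higher in 4 of 4 mice, Barhl1 and Nhlh1 in 3 and Atoh1 in 2. The exact two-sided sign-flip test over 4 mice cannot go below p = 0.12, the value reached by the 4 factors that were higher in every mouse, so no share could pass 0.05. Without thinning the Neurod1 difference was 23.2 points.

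Free RNA in the droplets can set a floor under these shares. Of 15 myeloid-like cells at this depth, 2 held a Neurod1 UMI (13.3%, 95% exact interval 1.66 to 40.5%), 3 a Pax6 UMI (20%) and 1 a Neurod2 UMI (6.67%), while 0 held Atoh1, Barhl1, Meis1 or Nhlh1, which allows a share of up to 20%. Of 64 oligodendrocyte-lineage-like cells, 1 held Neurod1 (1.56%, interval 0.0396 to 8.40%), 2 Pax6 (3.12%), 3 each Atoh1, Meis1 and Nhlh1 (4.69%, interval 0.977 to 13.1%), 10 Barhl1 (15.6%) and 0 Neurod2, which allows up to 4.69%. Median depths before thinning were 2641 and 2360.5 UMIs in these cells, against 2980 in differentiating and 2695 in progenitor-like cells. The Neurod1 shares of both granule-lineage-like classes lie inside the wide myeloid interval and above the oligodendrocyte one. So do both Pax6 shares (myeloid interval 4.33 to 48.1%, oligodendrocyte interval 0.381 to 10.8%). Of 90 astroglia-like cells, 14 held Neurod1 (15.6%, interval 8.77 to 24.7%). That interval includes the progenitor-like share and lies below the differentiating one. The myeloid share of Neurod2 rests on 1 cell (interval 0.169 to 31.9%). The part of free RNA in these shares was not tested. The shares of Nhlh1 and Neurod2 in both granule-lineage-like classes lie within the intervals or limits of the myeloid-like and oligodendrocyte-lineage-like cells, so no difference in share is read for them. Intervals cover counting error only.

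The factors were seen in partly overlapping sets of cells. At 1500 UMIs, 9.37% ± 5.02 of differentiating and 22.8% ± 3.49 of progenitor-like cells held no UMI of any of the 7, and 35.7% ± 4.54 of differentiating and 27.4% ± 2.39 of progenitor-like cells held UMIs of exactly 2. No cell held 6 or 7. Atoh1 and Neurod1, the precursor and the differentiation factor, were found together in 40 of 588 differentiating and 58 of 1962 progenitor-like cells. Of the Neurod1-positive cells 21.3% held Atoh1 in the differentiating class and 20.5% in the progenitor-like class, beside 23.5% and 23.1% of all cells of these classes.

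If the pair were independent within each mouse and class, 109.2 cells with both were expected, and 98 were observed, a ratio of 0.90. The ratio was 0.90, 1.15, 0.72 and 0.79 in mice 1 to 4, so mouse 2 stood on the other side of 1, and it ran from 0.79 at 1000 UMIs to 0.92 at 2000 UMIs. Without thinning, where cells of unequal depth enter together, it was 1.08. The differentiating cells with both had a median of 2644 UMIs before thinning, against 3092.5 with Atoh1 alone and 2955 with Neurod1 alone. In the differentiating class the neuronal order genes stood at 118 UMIs per 10000 in cells with both, 115 in cells with Neurod1 alone and 76.7 in cells with Atoh1 alone.

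Of the 21 pairs, 14 had a ratio above 1 and 4 were above 1 in every mouse: Atoh1 with Barhl1 (1.13, 308 cells observed), Atoh1 with Meis1 (1.09, 145 cells), Barhl1 with Meis1 (1.11, 287 cells) and Pax6 with Neurod1 (1.12, 147 cells). The first of these stayed above 1 at 1000 and 2000 UMIs (1.05 and 1.08), as did the other 3. These departures are weak in sparse counts and are given as descriptions with no test. Pairs with Nhlh1 or Neurod2 rest on 3 to 39 cells and varied widely between mice.

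**Figure D4:**
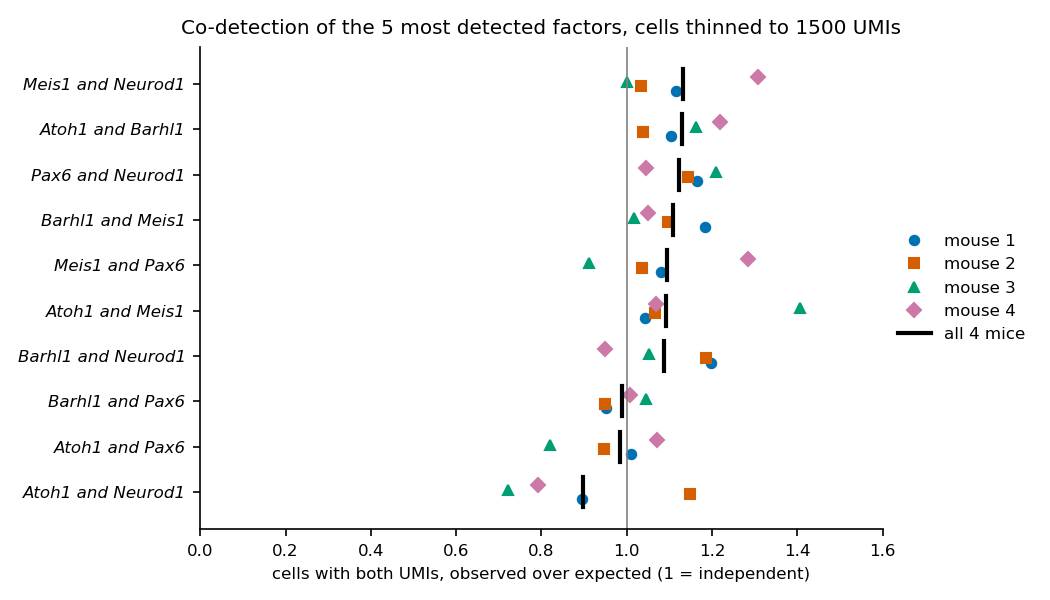
Observed over expected number of cells with UMIs of both factors (x axis, 1 means independence within mouse and class) for the 10 pairs of the 5 most detected factors at 1500 UMIs, 1 point per mouse and a black bar for all 4 mice. The Atoh1 and Neurod1 pair lies lowest at 0.90, and 4 pairs have all of their points above 1.

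The factors in granule-lineage-like cells were also set against 2 classes named by glial markers, whose origin was not tested. Granule-lineage-like cells had 188, 188, 155 and 149 CPM of Atoh1 in mice 1 to 4, against 25.9, 11.5, 0 and 62.5 CPM in oligodendrocyte-lineage-like cells, a difference of 2.28 log2 units (SE 0.40, adjusted p = 3.3e-07). Pax6 was 1.93 log2 units higher in granule-lineage-like cells (SE 0.33, adjusted p = 1.5e-07), Neurod1 1.88 (SE 0.38, adjusted p = 1.4e-05), Barhl1 1.56 (SE 0.26, adjusted p = 6.9e-08) and Meis1 1.33 (SE 0.35, adjusted p = 0.0013), all higher in 4 of 4 mice. Nhlh1 had 4 UMIs in the oligodendrocyte-lineage-like cells and its difference of 0.55 (SE 0.78, adjusted p = 0.69) did not pass, and Neurod2 was too sparse to test. Thus 5 of 6 tested members passed, all higher, where 17.4% of 6414 held-out genes passed and the median over all genes was 0.12. More than 3 UMIs were held by the oligodendrocyte-lineage-like cells of only 1 mouse for Atoh1, Meis1 and Neurod1. For Pax6 this was so in 2 mice and for Barhl1 in 3. The filter on low counts can be passed through the granule-lineage-like sums alone, so this count of members is a description. In simulated data this comparison called 26.5% of genes changed by 1 log2 unit and 83.9% of those changed by 2. Meis1 lost its call without mouse 2 (1.03, adjusted p = 0.070).

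Against astroglia-like cells none of the 7 passed, where 1.74% of 6322 held-out genes did (110 genes, and 645 at an unadjusted p under 0.05). Of the 7, Barhl1 had an unadjusted p of 0.028 and the others lay above 0.05, and DESeq2 called none of them. In simulated data of this comparison 42.0% of genes changed by 1 log2 unit and 96.6% of those changed by 2 were called, so changes of the size seen here could be missed. Atoh1 had 188, 188, 155 and 149 CPM in granule-lineage-like cells, against 186, 91.6, 74.9 and 86.4 CPM in astroglia-like cells, 0.42 log2 units (SE 0.22, adjusted p = 0.43), and the astroglia-like value of mouse 1 stood apart. Neurod1 had 129, 161, 143 and 195 CPM against 143, 122, 125 and 149 CPM (0.11, SE 0.22, adjusted p = 0.90). The 3 astroglia-like clusters led with Aqp4, yet they also held 6.96 to 14.1 UMIs per 10000 of the 10 granule lineage markers. The oligodendrocyte-lineage-like clusters held 2.14 to 6.64 and the granule-lineage-like clusters 7.01 to 18.0. The part of RNA from granule-lineage-like cells in the astroglia-like levels was not tested.

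**Figure D5:**
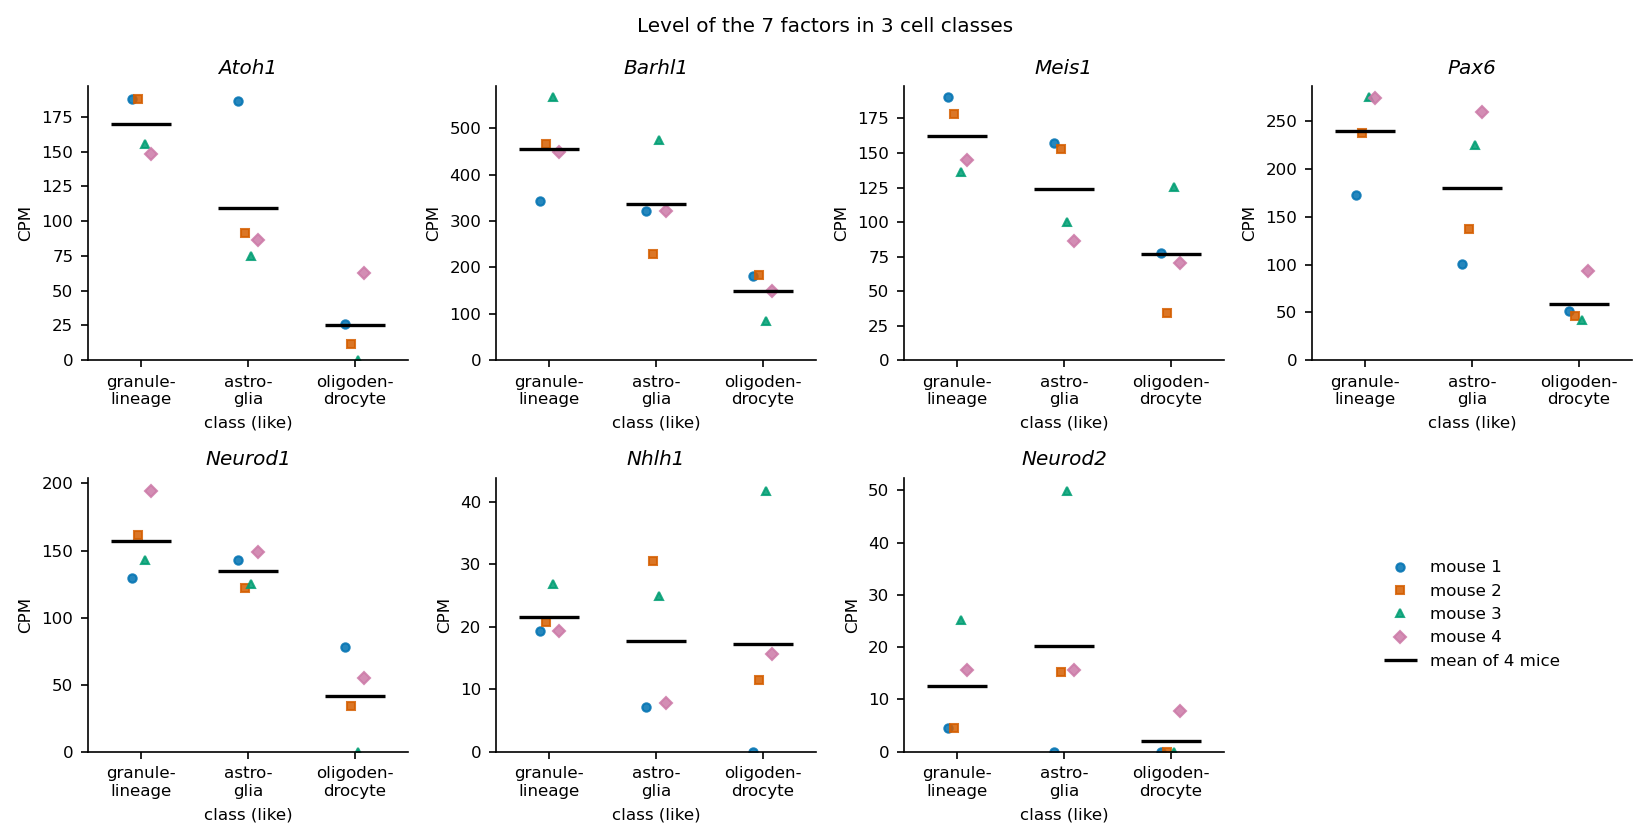
CPM (linear axis from 0, a scale of its own for each gene) of each factor in granule-lineage-like, astroglia-like and oligodendrocyte-lineage-like cells, 1 point per mouse and a black bar for the mean of 4 mice. Atoh1 reaches at most 62.5 CPM in oligodendrocyte-lineage-like cells, while the astroglia-like points overlap those of the granule-lineage-like cells for each factor.

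The 39 myeloid-like cells held 8 Neurod1, 5 Pax6, 3 Barhl1, 2 Neurod2 and 1 Atoh1 UMIs and none of Meis1 or Nhlh1, and 7 of the 8 Neurod1 UMIs came from mouse 4. A cluster of only 5 cells was mature granule-like by Gabra6, Cbln1, Cbln3, Vsnl1, Snap25 and Chn2, markers of granule neurons that have reached the internal layer. It held 9 Neurod1, 2 Atoh1, 1 Pax6, 1 Meis1 and 1 Neurod2 UMIs and 0 of Barhl1 and Nhlh1, too few cells for any comparison.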

How the data were processed

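UMI counts per gene and cell of 4 tumour libraries were used as the authors deposited them. Per the submitters' processing notes they were made with Cell Ranger 2.0.2 and Seurat on mm10; the annotation release is not given in the sources used here. Per the labels, sequencing took 2 rounds for mouse 1. The 4 files hold 1679285 to 3801197 UMIs in 5670 barcodes, beside 4749 cells named in the series text. Cells with at least 500 genes and at most 10% mitochondrial UMIs were kept (4137), 36 called doublets were removed with scrublet in scanpy 1.11.5, and 4101 remained, from which Leiden clusters at resolution 1 were built on 2000 variable genes and 30 principal components, without the members and factor lists. Sums of the deposited counts for each class of each mouse were compared by edgeR 4.0.16 (TMM, filterByExpr, quasi-likelihood, mouse as a block, Benjamini-Hochberg over all genes). Calls were counted over genes used for no clustering, naming or order.

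The SE is the log2 fold change divided by the square root of the F statistic, and is no spread over mice. Replicates are separate littermate mice. The classes of a mouse come from the same animal and are paired by it; deviations of same-mouse sums from their group means correlated at 0.0770 to 0.487. Shares of cells carry exact Clopper-Pearson intervals at 95%, and a count of 0 allows 3 counts. The scripts were tested on simulated data, where 77.9% of genes changed by 1 log2 unit and 97.9% of those changed by 2 were called between differentiating and progenitor-like cells. Of the list genes, those that passed, moved the same way in every mouse and had the largest changes were named, 1 to 3 per direction and list; the genes nearest in course are the 3 highest by r with a mean of at least 50 CPM. The members and lists were chosen with earlier results of these data known. Alternatives were DESeq2 1.42.0, RLE scaling, no filter, no mouse block, each mouse left out, stricter mitochondrial and Malat1 limits, thinning to 1500 UMIs, other clusterings and other splits of the orders. Only the windows of the RefSeq promoter table and the gencode vM21 gene models were used as reference.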

Additional observations from a re-analysis of the deposited data

Results flagged for a closer look

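For 7 of 84 groups of 4 mice the highest or lowest mouse lay far from the others, where chance flags about 1 in 20. Neurod1 in progenitor-like cells was 89.7 CPM in mouse 1 and 118 to 119 CPM in the other mice, and in bin 3 of the 5 bins of the neuronal order it was 81.5 CPM in mouse 1 and 122 to 127 CPM in the others. Neurod2 in differentiating cells was 105 CPM in mouse 3, from 9 UMIs, and 11.1 to 22.7 CPM in the others. Atoh1 in astroglia-like cells was 186 CPM in mouse 1 and 74.9 to 91.6 CPM in the others. Nhlh1 in bin 1 was 22.9 CPM in mouse 3, from 6 UMIs, and 6.75 to 6.98 CPM in the others. The 2 remaining values rest on 1 and 2 UMIs, namely Neurod2 at 7.81 CPM in the oligodendrocyte-lineage-like cells and at 3.38 CPM in bin 1, both in mouse 4, with 0 in the others.

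The barcodes outside the filters, which no comparison used, also held the factors. These 1533 barcodes had a median of 667 UMIs and together 144 Atoh1, 387 Barhl1, 164 Meis1, 299 Pax6, 175 Neurod1, 13 Nhlh1 and 17 Neurod2 UMIs.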

How the results depend on the processing

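The 7442 held-out genes tested between differentiating and progenitor-like cells gave 965 calls, against 370 with DESeq2, 245 with no replicate block, 395 after thinning to 1500 UMIs and 501 to 834 with 1 mouse left out. Between cycle-low and cycle-high cells the 1362 calls became 498, 584, 655 and 892 to 1242 under these settings, and between differentiating and cycle-low cells the 450 calls became 164, 115, 231 and 299 to 470. Along the 5 bins of the neuronal order the 1374 calls became 817 with no replicate block and 925 to 1319 with 1 mouse left out. Against astroglia-like cells the 110 calls became 58 with DESeq2, 38 with no replicate block and 44 to 99 with 1 mouse left out, and against oligodendrocyte-lineage-like cells the 1119 calls became 545 to 1080 with 1 mouse left out. The cause of these shifts was not tested; leaving out a mouse or thinning leaves fewer counts. With no replicate block the rises of Barhl1 and Neurod2 in differentiating cells (adjusted p = 0.10 and 0.27) and the calls of Pax6 in all 3 stage comparisons (0.36, 0.071 and 0.083) were lost.

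Atoh1 turned to -0.17 log2 units in differentiating over progenitor-like cells with the cell cycle regressed out and to -0.28 at resolution 2. Meis1 in differentiating over cycle-low cells turned to 0.054 with the cell cycle regressed out, 0.057 at resolution 0.5 and 0.0026 with 2 cell cycle groups in place of 3, and ran from -0.27 to 0.074 with 1 mouse left out. The slopes ran from -0.017 to 0.082 for Atoh1 and from -0.0064 to 0.079 for Meis1, and the difference in the Atoh1 share from -2.35 to 2.62 points, with 1 mouse left out. None of these passed its test in the main setting. The rise of Neurod1 in differentiating over progenitor-like cells held in 14 of 14 alternatives (1.44 to 2.25 log2 units) and that of Nhlh1 in 14 of 14 (0.84 to 1.97). Depth limits Nhlh1 and Neurod2, with 204 and 114 UMIs, and co-detection of pairs that include them.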

Other observations

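The clusters, which were built without the members, split the cycling cells further. These values describe clusters and carry no test. The cluster led by the mitotic genes Ccnb1, Cdc20 and Plk1 had 290.4, 328, 354 and 382 CPM of Pax6 in mice 1 to 4. The cluster led by the histone genes of S phase had 189, 225, 283 and 263 CPM, and the cluster led by Hes1, Pdlim3 and Myc 117, 188, 204 and 214 CPM. In every mouse Pax6 was thus highest in the mitotic cluster of these 3. Neurod1 averaged 151 ± 35.5 CPM in the mitotic cluster, 95.5 ± 18.0 CPM in the S phase cluster and 82.0 ± 22.6 CPM in the Hes1 cluster (SD, 4 mice), with mouse 3 in another order.

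The 2 differentiating clusters differed in Malat1, with 16.8 and 168 UMIs per 10000. The smaller one, low in Malat1 and led by Rab3a and Stmn2, had 17 Atoh1 UMIs in 107 cells and 142, 131 and 78.1 CPM in mice 1, 2 and 4. The larger one, led by Cntn2 and Eln, had 262, 206 and 156 CPM in these mice, and both held Neurod1 at similar levels (410.0 ± 16.6 CPM over 3 mice and 374 ± 100.2 CPM over 4).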
